A study of Homo sapiens with 6 samples.

Results

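The genes described here are 10 markers that place a glioblastoma cell among glial, stem-like and mesenchymal states. CD44, CHI3L1, VIM, S100A6 and STAT3 mark or drive the mesenchymal state, NES, SOX2 and SOX9 mark neural and glioma stem cells, and GFAP and OLIG2 mark astrocytes and the oligodendrocyte lineage. They were taken by gene name, and all 10 were among the 35750 genes listed. Gene expression was measured in T98G, an established human glioblastoma line grown in medium with serum, by sequencing poly(A) RNA. The 6 libraries fall into 2 groups: 3 are labelled shSLC1A5, for a short hairpin RNA against SLC1A5, the transporter that carries glutamine and other neutral amino acids into the cell, and 3 are labelled shControl. The labels give no hairpin sequence or time after delivery, and do not say whether a group is a single clone or whether its libraries are separate cultures. The spread behind each p-value is that among the libraries of a group and may be technical.

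Glioblastomas are often described along proneural, classical and mesenchymal states, and cells of 1 tumour can move between them. The mesenchymal state is known for CD44, the cell surface receptor for hyaluronan, for secreted CHI3L1 (YKL-40) and for transcription factors that include STAT3 and the C/EBP proteins. SOX2, NES and OLIG2 are used to recognise glioma stem-like cells, and lines kept in serum for long often carry little of them.

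Total counts ran from 66998312 to 70802167 per library in shSLC1A5 and from 59327548 to 63420773 in shControl. Genes that averaged 1 FPKM or more (fragments scaled to gene length and to library size) over the 6 libraries were tested with edgeR's quasi-likelihood test on the counts, and p-values were adjusted by the Benjamini-Hochberg method over all 11841 of them. At an adjusted p under 0.05, 39.2% of these genes were called, 20.2% higher and 19.0% lower in shSLC1A5, and the median log2 fold change was -0.01. A share of called markers near 39.2% is thus no more than the genome-wide share. SLC1A5 itself had 87.5, 88.0 and 88.3 FPKM in shSLC1A5, against 95.0, 95.3 and 97.1 FPKM in shControl, a log2 fold change of -0.14 ± 0.0183 (SE, adjusted p 1.93e-04). The targeted transcript thus fell by 9.02% in this fit in the libraries labelled shSLC1A5. Across genes, log2 fold changes rose with transcript GC content (Spearman's rho 0.49, described over the 11841 genes, which share the same 6 libraries), so each value was also computed after a correction that removes trends with GC content and length. With it the log2 fold change of SLC1A5 was -0.34.

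The shSLC1A5 replicate 1 library stood apart from the other 5 by blood cell transcripts, and it is left out beside the results that it touches. The 8 listed markers of neutrophils and red cells summed to 55.5, 0.700 and 0.595 FPKM in shSLC1A5, against 0.175, 0.215 and 0.264 FPKM in shControl. The 9 markers of lymphocytes summed to 10.96, 5.90 and 8.97 FPKM in shSLC1A5, against 0.257, 0.287 and 0.526 FPKM in shControl, with the immunoglobulin chain IGHM at 729, 378 and 688 counts in shSLC1A5, against 0, 0 and 0 in shControl. The 6 markers of endothelium summed to 1.14, 1.22 and 1.09 FPKM in shSLC1A5, against 0.108, 0.246 and 0.116 FPKM in shControl. Thus all 3 shSLC1A5 libraries carried more lymphocyte and endothelial marker RNA than any shControl library, and the neutrophil and red cell markers set replicate 1 alone far apart. The sum of the neuronal list differed little, at 34.7, 35.1 and 34.3 FPKM in shSLC1A5, against 32.7, 34.3 and 34.3 FPKM in shControl. TUBB3, called higher (log2 fold change 0.11, adjusted p 0.0387), and MAP2, called lower (-0.18, adjusted p 8.31e-04), made up most of it. The GC and length correction ended the TUBB3 call (-0.08, adjusted p 0.102). Some defining markers were absent throughout: CD3E of T cells and MPO of neutrophils had 0 counts in all 6 libraries. The part of these transcripts in the marker results was not tested.

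**Figure D1:**
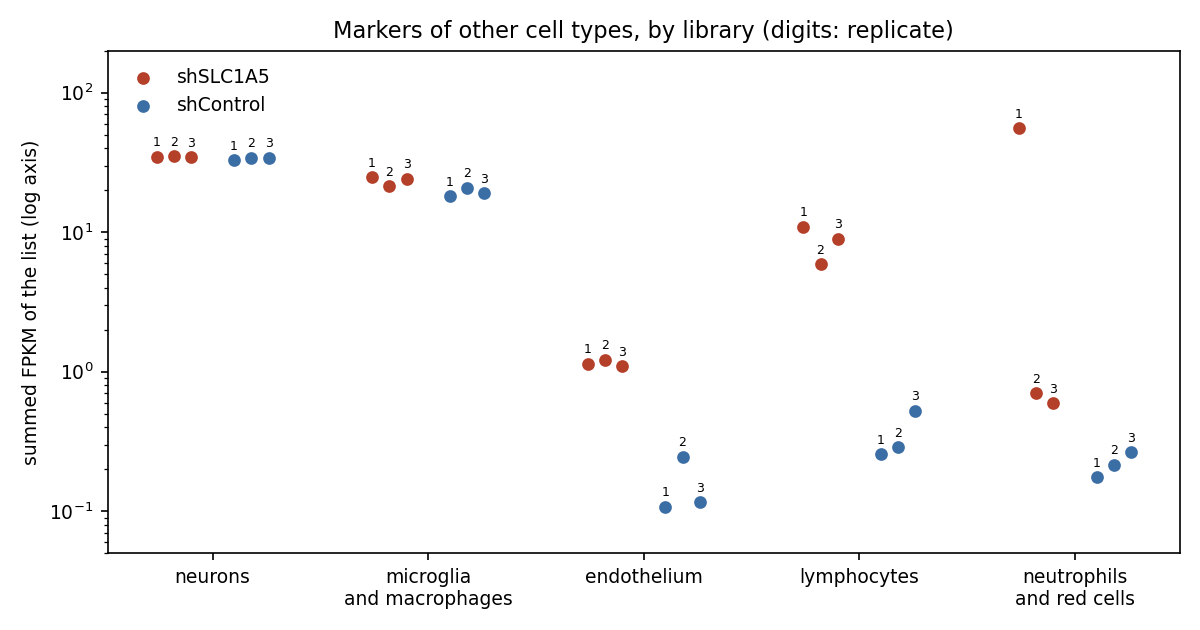
Summed FPKM of marker genes of 5 other cell types (log axis), 1 point per library, shSLC1A5 in red and shControl in blue, with the replicate number above each point. Lymphocyte and endothelial sums are higher in all 3 shSLC1A5 libraries, and the neutrophil and red cell sum reaches 55.5 FPKM in shSLC1A5 replicate 1 alone.

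The 10 markers spanned more than 4 orders of magnitude on the FPKM scale, and this order of levels was nearly the same in both groups. S100A6, VIM and CD44 were among the most abundant transcripts, at rank 22, 60 and 125 of the listed genes in shSLC1A5 and rank 23, 45 and 114 in shControl. STAT3 and SOX9 lay at rank 1806 and 5065 in shSLC1A5 and rank 1882 and 4043 in shControl. OLIG2, CHI3L1, NES, SOX2 and GFAP had a mean under 1 FPKM and did not enter the test. The mesenchymal markers S100A6, VIM and CD44 were thus abundant in T98G RNA of either group, while CHI3L1 of the same set was under 1 FPKM. Among the stem cell markers SOX9 was well measured and SOX2 was at or near 0, as was the astrocyte marker GFAP. Of the 5 markers tested, 4 were called, against 39.2% of all genes: VIM, CD44 and SOX9 were lower and S100A6 was higher in shSLC1A5. The FPKM of the groups did not overlap for the same 4 markers and for 49.6% of all tested genes. Each of these changes was small, with log2 fold changes between -0.36 and 0.11. All 5 tested markers averaged above 5 FPKM, and with that minimum 1802 of 6749 genes were called higher and 1576 lower. With the GC and length correction 26.6% of all genes tested were called, and S100A6 was not.

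**Figure D2:**
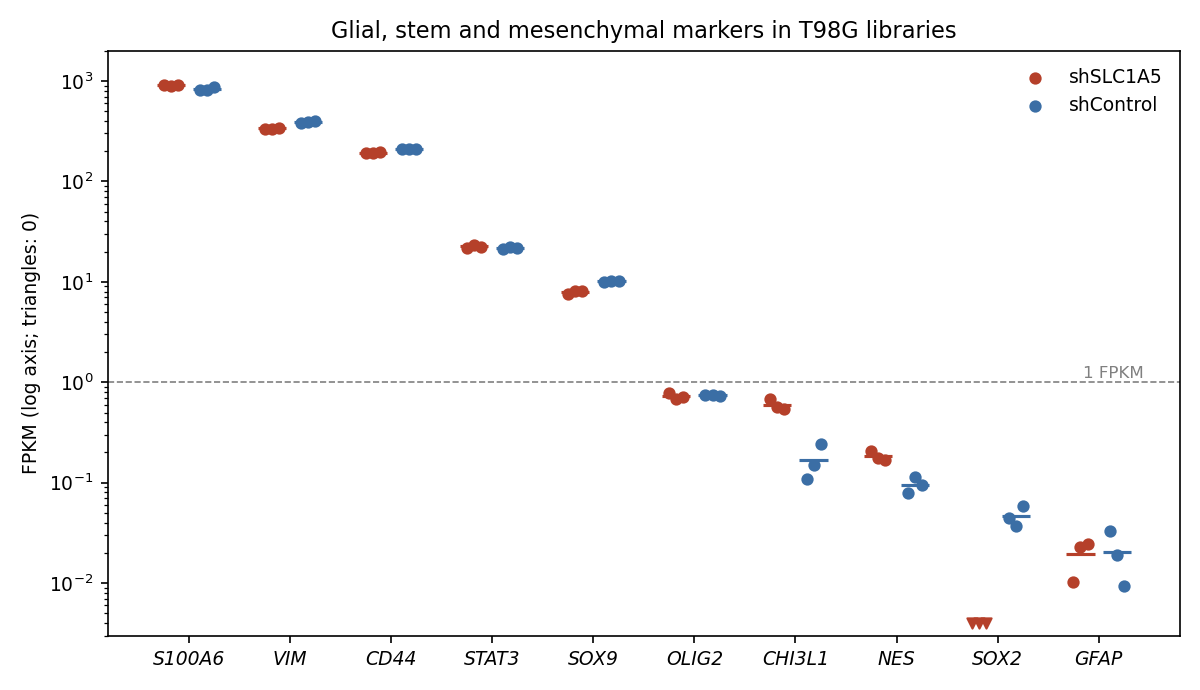
FPKM of the 10 markers in each library (log axis), shSLC1A5 in red and shControl in blue, with a bar at the group mean. Triangles stand for 0 FPKM, and the dashed line is the 1 FPKM minimum. S100A6, VIM and CD44 lie above 190 FPKM, 5 markers lie under the line, and SOX2 is at 0 in all 3 shSLC1A5 libraries.

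The promoters of the 3 low markers whose groups did not overlap (CHI3L1, NES and SOX2) and of VIM, an abundant marker that fell, are shown so that their starts can be compared. They are the 250 bases before the RefSeq start on GRCh38.p14, read in the direction of transcription. Capitals mark TATA boxes, CCAAT boxes and GC boxes on either strand, spelled out after the sequences.
CHI3L1, chr1:203186705-203186954, minus strand: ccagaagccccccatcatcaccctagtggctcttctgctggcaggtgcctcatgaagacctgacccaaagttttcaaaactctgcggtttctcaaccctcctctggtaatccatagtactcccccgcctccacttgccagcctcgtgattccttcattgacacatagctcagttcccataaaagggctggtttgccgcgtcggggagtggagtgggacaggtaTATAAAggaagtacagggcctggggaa
NES, chr1:156677408-156677657, minus strand: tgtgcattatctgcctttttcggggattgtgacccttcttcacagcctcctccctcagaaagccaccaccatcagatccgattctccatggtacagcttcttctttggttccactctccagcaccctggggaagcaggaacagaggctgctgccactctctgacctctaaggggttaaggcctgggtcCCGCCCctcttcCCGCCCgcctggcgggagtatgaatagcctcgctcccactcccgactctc
SOX2, chr3:181711675-181711924, plus strand: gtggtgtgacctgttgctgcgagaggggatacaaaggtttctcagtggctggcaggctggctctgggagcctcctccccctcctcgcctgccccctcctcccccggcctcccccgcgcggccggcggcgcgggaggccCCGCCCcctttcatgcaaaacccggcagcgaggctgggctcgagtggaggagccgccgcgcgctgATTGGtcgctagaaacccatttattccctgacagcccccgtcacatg
VIM, chr10:17227991-17228240, plus strand: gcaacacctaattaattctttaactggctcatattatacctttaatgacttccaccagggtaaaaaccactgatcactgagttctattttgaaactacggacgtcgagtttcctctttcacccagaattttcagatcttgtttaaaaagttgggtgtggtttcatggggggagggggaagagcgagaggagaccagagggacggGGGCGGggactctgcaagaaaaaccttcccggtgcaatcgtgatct

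Promoters of 7 of the 10 markers were in the RefSeq table (not those of SOX9, GFAP and OLIG2), and motifs were counted on both strands from 250 bases before to 50 bases after the start. CHI3L1 alone among the 7 held TATAAA, 27 bases before its start, a motif in 11.5% of 35116 promoters in the table. GC boxes, spelled GGGCGG, were found in NES, SOX2, VIM, CD44, S100A6 and STAT3 and in 45.0% of all promoters, and the CCAAT box in SOX2 and STAT3 and in 34.6% of all. The STAT half-site pair TTCNNNGAA and the AP-1 motif TGANTCA were in 0 of the 7 windows, against 7.66% and 7.71% of all promoters. These matches are descriptions of letters in these windows. The promoter windows ran from 48.0% GC for VIM to 69.3% GC for S100A6, around a median of 58.7% over all promoters.

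Among the mesenchymal markers, VIM (ENSG00000026025, chromosome 10, 17228241 to 17237593, plus strand), which encodes the intermediate filament protein vimentin, had 336, 336 and 344 FPKM in shSLC1A5, against 385, 392 and 397 FPKM in shControl. Every shSLC1A5 library lay under every shControl library. The means were 339 ± 4.87 FPKM in shSLC1A5 and 391 ± 5.72 FPKM in shControl (SD, n = 3 each), and VIM took 0.197% of all counts in shSLC1A5 and 0.228% in shControl. VIM fell by 0.22 on the log2 scale (SE 0.0155, 95% interval -0.26 to -0.19, adjusted p 1.81e-06). The decrease was smaller with quantile normalization, at -0.12, and with the GC and length correction, at -0.17, and passed the test in both.

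CD44 (ENSG00000026508, chromosome 11, 35138882 to 35232402, plus strand), the hyaluronan receptor, had 191, 193 and 198 FPKM in shSLC1A5, against 210, 209 and 210 FPKM in shControl. The groups did not overlap, although they lay close together. The means were 194 ± 3.37 FPKM in shSLC1A5 and 210 ± 0.299 FPKM in shControl (SD, n = 3 each), on 146304 to 153137 counts per library in shSLC1A5 and 139510 to 149997 in shControl. CD44 fell by 0.12 on the log2 scale (SE 0.0151, 95% interval -0.16 to -0.09, adjusted p 9.97e-05), and by 0.08 with the GC and length correction (adjusted p 9.74e-04). The antisense gene CD44-AS1, which overlaps it, had at most 114 counts in any library.

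S100A6 (ENSG00000197956, chromosome 1, 153534599 to 153536215, minus strand), a calcium-binding protein also called calcyclin, was the most abundant of the markers, with 905, 898 and 921 FPKM in shSLC1A5, against 819, 812 and 867 FPKM in shControl. All 3 shSLC1A5 libraries were above all 3 shControl libraries, and shControl replicate 3 came nearest to them. The means were 908 ± 11.6 FPKM in shSLC1A5 and 833 ± 30.1 FPKM in shControl (SD, n = 3 each). S100A6 rose by 0.11 on the log2 scale (SE 0.0237, 95% interval 0.06 to 0.16, adjusted p 0.00353). The GC and length correction ended this call and turned its sign, at -0.04 (adjusted p 0.141). The longest transcript of S100A6 is 60.2% GC, the highest of the 10 markers, and 673 bases long, the shortest.

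STAT3 (ENSG00000168610, chromosome 17, 42313324 to 42388442, minus strand), the transcription factor activated by cytokines of the interleukin-6 family, had 21.9, 23.5 and 22.1 FPKM in shSLC1A5, against 21.1, 22.0 and 21.8 FPKM in shControl. The groups overlapped. The log2 fold change was 0.05 ± 0.0279 (SE, 95% interval -0.02 to 0.11, adjusted p 0.218), so a change in STAT3 RNA beyond 0.11 in either direction lies outside the interval. STAT3 protein is activated by phosphorylation, which RNA levels do not measure.

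CHI3L1 (ENSG00000133048, chromosome 1, 203178931 to 203186704, minus strand), a secreted chitinase-like protein, had 0.686, 0.567 and 0.537 FPKM in shSLC1A5, against 0.109, 0.150 and 0.245 FPKM in shControl. These values stood for 188, 146 and 137 counts in shSLC1A5, against 28, 37 and 57 counts in shControl. Every shSLC1A5 library was above every shControl library, and the means of 0.597 ± 0.0785 FPKM in shSLC1A5 and 0.168 ± 0.0698 FPKM in shControl (SD, n = 3 each) gave a ratio of 3.55. An exact permutation test of the FPKM gave p = 0.1, two-sided, the smallest that 3 against 3 libraries allow. Since CHI3L1 lay under 1 FPKM, its test came only from the edgeR fit with no filter on low values. There the log2 fold change was 1.77 ± 0.317 (SE, 95% interval 1.03 to 2.51, adjusted p 0.0124), and 1.29% of the 22366 genes under 1 FPKM with any count were called. Leaving out shSLC1A5 replicate 1 gave a log2 fold change of 1.64 that just missed the threshold (adjusted p 0.0509). CHI3L1 is known also from macrophages and neutrophils. The 11 listed markers of microglia and macrophages summed to 24.82, 21.45 and 24.26 FPKM in shSLC1A5, against 18.18, 20.81 and 19.02 FPKM in shControl. CD68 alone made up most of each sum, at 20.1, 20.0 and 23.1 FPKM in shSLC1A5, against 17.0, 19.5 and 17.7 FPKM in shControl. Of these 11 markers 2 were higher in all 3 shSLC1A5 libraries than in any shControl library, and of the 8 neutrophil and red cell markers 0 were. Groups did not overlap, in either direction, for 10.9% of genes under 1 FPKM and for 49.6% of tested genes. The myeloid adaptor TYROBP had 126, 0 and 0 counts in shSLC1A5, against 0, 0 and 0 in shControl. The part of such transcripts in the CHI3L1 values was not tested.

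**Figure D3:**
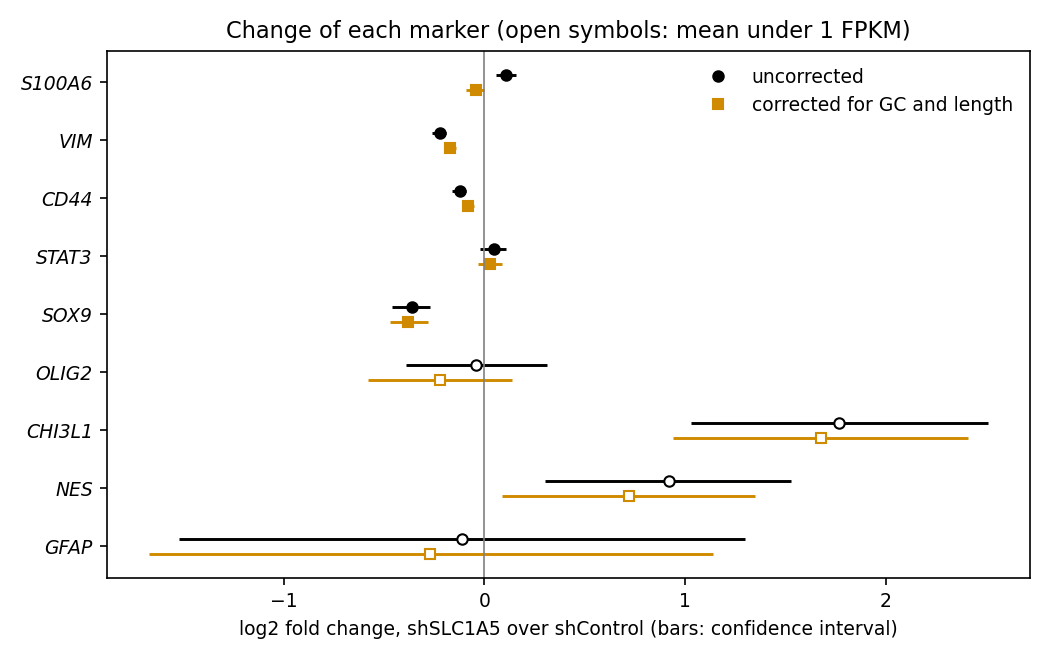
Log2 fold change of 9 markers, shSLC1A5 over shControl, with 95% intervals, before (black circles) and after (orange squares) correction for GC content and length. Filled symbols are tested genes, open symbols come from the fit with no filter, and SOX2, at 0 counts in shSLC1A5, is not drawn. VIM, CD44 and SOX9 stay under 0 in both, S100A6 is at 0.11 before and -0.04 after, and CHI3L1 lies farthest to the right.

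Among the stem cell markers, SOX9 (ENSG00000125398, chromosome 17, 72121020 to 72126416, plus strand), a transcription factor of glial progenitors and astrocytes, had 7.54, 8.18 and 8.05 FPKM in shSLC1A5, against 10.0, 10.2 and 10.1 FPKM in shControl. The groups did not overlap, and the gap between them was several times their spread. The means were 7.92 ± 0.337 FPKM in shSLC1A5 and 10.1 ± 0.104 FPKM in shControl (SD, n = 3 each). SOX9 fell by 0.36 on the log2 scale (SE 0.0432, 95% interval -0.46 to -0.27, adjusted p 8.34e-05), the largest change among the 5 markers tested, and by 0.38 with the GC and length correction. By Pearson correlation of log2 CPM (counts scaled to library size) over the 6 libraries, the genes most like SOX9 were GPR176 (r = 0.99860), MTFR1 (r = 0.99845) and ELOVL5 (r = 0.99830), a description of 6 points. MTFR1 averaged 8.93 FPKM in shSLC1A5 and 9.49 FPKM in shControl, closer together than the SOX9 means. ELOVL5, an elongase of long-chain fatty acids, averaged 53.8 FPKM in shSLC1A5 and 66.0 FPKM in shControl. GPR176, an orphan receptor coupled to G proteins, averaged 10.8 FPKM in shSLC1A5 and 14.1 FPKM in shControl.

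NES (ENSG00000132688, chromosome 1, 156668763 to 156677407, minus strand), the stem cell intermediate filament protein nestin, had 0.206, 0.178 and 0.170 FPKM in shSLC1A5, against 0.0792, 0.113 and 0.0953 FPKM in shControl. The counts were 92, 76 and 72 in shSLC1A5, against 32, 45 and 36 in shControl. The groups did not overlap, at a level far under that of vimentin. The means were 0.185 ± 0.0191 FPKM in shSLC1A5 and 0.0959 ± 0.0170 FPKM in shControl (SD, n = 3 each), a ratio of 1.93. The log2 fold change of 0.92 ± 0.262 (SE, 95% interval 0.30 to 1.53) did not pass in the fit with no filter (adjusted p 0.0756). Nestin is also made by endothelial cells, and endothelial markers were higher in the same libraries: CDH5 (VE-cadherin) had 118, 100 and 98 counts in shSLC1A5, against 0, 0 and 0 in shControl. VWF, the von Willebrand factor of endothelium and platelets, had 250, 317 and 299 counts in shSLC1A5, against 4, 24 and 20 in shControl. Of the 6 endothelial markers, all under 1 FPKM, 4 were higher in all 3 shSLC1A5 libraries than in any shControl library. Groups did not overlap, in either direction, for 10.9% of the 22366 genes under 1 FPKM with any count. The part of endothelial transcripts in the NES values was not tested.

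SOX2 (ENSG00000181449, chromosome 3, 181711925 to 181714436, plus strand), a transcription factor that maintains neural stem cells, had 0, 0 and 0 counts in shSLC1A5, against 8, 7 and 10 counts in shControl. The shControl values were 0.0442, 0.0368 and 0.0580 FPKM. Set against a floor of 3 counts in each shSLC1A5 library, the shControl mean of SOX2 was 3.09-fold higher. This floor covers counting error in shSLC1A5 only, and the counting error of the shControl counts is not in the ratio. SOX2 did not pass in the fit with no filter (adjusted p 0.0582), and DESeq2 with no filter called it (adjusted p 0.00753). SOX2 lies within SOX2-OT, a longer transcript on the same strand with 1, 0 and 0 counts in shSLC1A5, against 0, 8 and 10 counts in shControl. Reads of the pair cannot be told apart where they overlap, so the SOX2 counts are uncertain.

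Of the glial markers, OLIG2 (ENSG00000205927, chromosome 21, 33025935 to 33029185, plus strand), a basic helix-loop-helix factor of the oligodendrocyte lineage, had 0.788, 0.680 and 0.718 FPKM in shSLC1A5, against 0.741, 0.749 and 0.732 FPKM in shControl. The groups overlapped, and the shControl libraries lay within the range of the shSLC1A5 libraries. With 555 counts in all in shSLC1A5 and 509 in shControl, the log2 fold change in the fit with no filter was -0.04 ± 0.149 (SE, 95% interval -0.39 to 0.31, adjusted p 0.926). An exact permutation test of the FPKM gave p = 0.700, two-sided.

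GFAP (ENSG00000131095, chromosome 17, 44903159 to 44916937, minus strand), the intermediate filament protein of mature astrocytes, had 10, 20 and 23 counts in shSLC1A5, against 28, 16 and 8 counts in shControl. These counts correspond to 0.0193 ± 0.00795 FPKM in shSLC1A5 and 0.0204 ± 0.0117 FPKM in shControl (SD, n = 3 each), and the groups overlapped throughout. The log2 fold change was -0.11 ± 0.604 (SE, 95% interval -1.52 to 1.30, adjusted p 0.953 in the fit with no filter), so changes inside that wide interval were not detectable at this depth. GFAP overlaps CCDC103 and FAM187A on the opposite strand, which had 73 to 315 counts per library, and since the strand setting of the counting is not given, part of the GFAP counts may belong to them.

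Among the 5 markers under 1 FPKM, 3 had groups that did not overlap (CHI3L1, NES and SOX2), against 10.9% of the 22366 genes under 1 FPKM with any count. Of these 3, CHI3L1 and NES were higher and SOX2 was lower in shSLC1A5, and CHI3L1 was called with no filter.

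Genes that work with the markers were described in 15 lists that hold 235 genes beside the markers, of which 220 were listed and 139 were tested. Of these 139, 53 rose and 31 fell, with a median log2 fold change of 0.07. Over all genes tested 39.2% were called, 20.2% higher and 19.0% lower, with a median of -0.01. With the GC and length correction 35 rose and 36 fell, with a median of 0.00, where 26.6% of all genes tested were called (11.8% higher and 14.8% lower), and 59 of the 84 called genes kept their call and direction. The surplus of higher over lower genes in the lists was thus seen only before that correction. In both fits the shares of list genes called higher and called lower were above those over all genes. The same shares over all genes stand beside the counts of single lists below. The lists were chosen with earlier results of these data known, so their excess over all genes is a description and was not tested. Shares called were also higher among abundant genes. With a minimum mean of 5 FPKM, 1802 of 6749 genes rose and 1576 fell, and 44 of 104 list genes rose and 29 fell. Without shSLC1A5 replicate 1, 43 of 136 tested list genes rose and 30 fell, beside 2067 and 1895 of all 11826 genes tested. Leaving out any other single library gave 42 to 49 list genes that rose and 29 to 31 that fell, so these lower counts are not particular to that replicate. Log2 fold changes from here on are given without the correction, and it is named where it made or ended a call or moved the value of a called gene by more than 1.5 times.

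**Figure D4:**
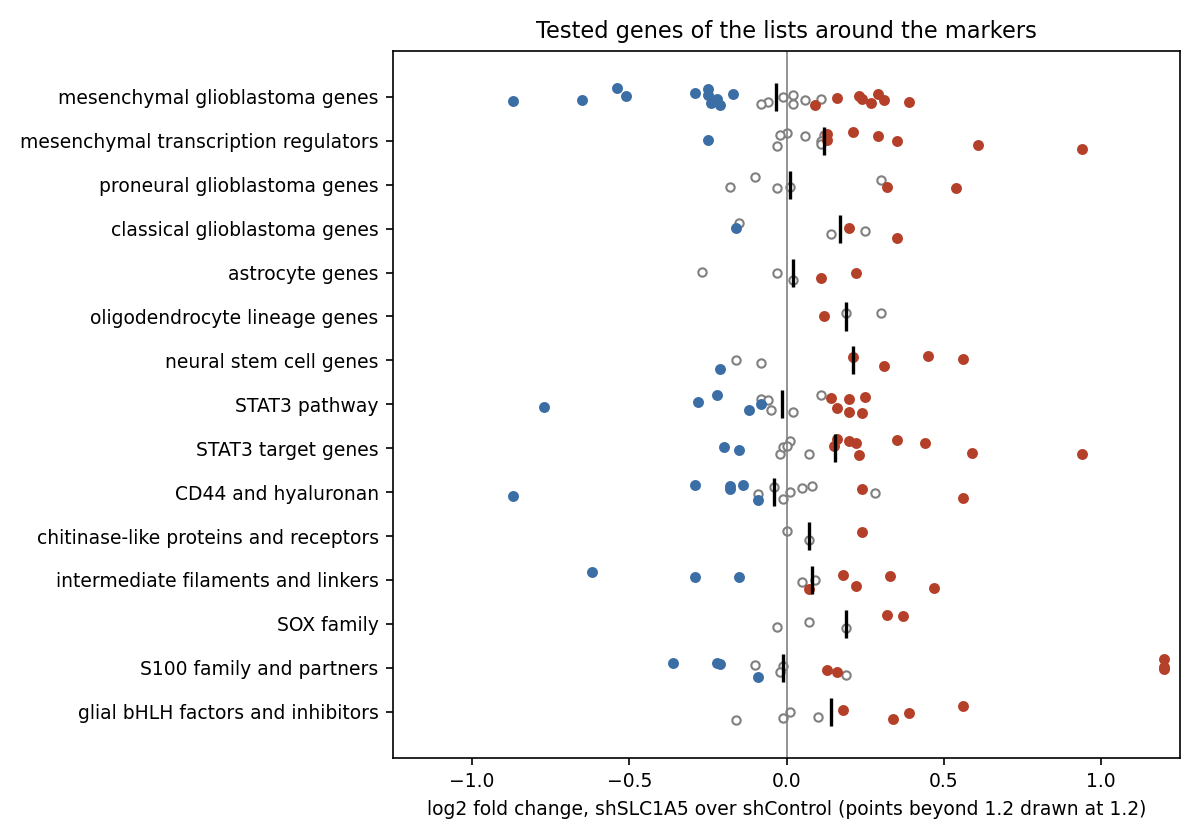
Log2 fold change, shSLC1A5 over shControl, of each tested gene in 15 lists around the markers, called higher in red, called lower in blue and not called as open grey circles, with a black bar at the list median. The mesenchymal genes spread to both sides of 0 with a median of -0.03, and 3 S100 genes drawn at the right edge lie beyond the axis.

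The mesenchymal glioblastoma genes moved in both directions. Of 26 tested, 8 rose and 11 fell (5 and 12 with the GC and length correction), with a median log2 fold change of -0.03. Genes with large decreases included those of secreted and membrane proteins. SPP1 (osteopontin, a ligand of CD44) averaged 4.59 ± 0.315 FPKM in shSLC1A5 and 8.32 ± 0.568 FPKM in shControl (SD, n = 3 each), a log2 fold change of -0.87 (adjusted p 2.14e-05). The membrane protein EMP1 fell by 0.54 and the matrix protein THBS1 (thrombospondin 1) by 0.51. THBS1 was the most abundant of these 3, at 73.7 ± 1.15 FPKM in shSLC1A5 and 104 ± 1.96 FPKM in shControl.

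Of 15 transcription regulators of the mesenchymal state tested, 7 rose, 1 fell and 7 did not pass the test, with a median of 0.12; with the GC and length correction 5 rose and 3 fell, with a median of 0.05. CEBPD averaged 32.6 ± 0.862 FPKM in shSLC1A5 and 16.8 ± 1.34 FPKM in shControl, a log2 fold change of 0.94 ± 0.0633 (SE, adjusted p 1.38e-06), which was 0.56 with the correction. PRRX1, a homeobox factor of mesenchymal cells, rose by 0.61 at a low level, and BHLHE40, a basic helix-loop-helix repressor, rose by 0.29. CEBPB averaged 54.1 ± 3.07 FPKM in shSLC1A5 and 42.1 ± 0.390 FPKM in shControl, a log2 fold change of 0.35, and was not called with the correction (0.05, adjusted p 0.316). RUNX1, the gene that fell, changed by -0.25. FOSL2, an AP-1 subunit, had a log2 fold change of 0.13 (adjusted p 0.0361), which the correction ended, as did leaving out shSLC1A5 replicate 1 or 3 or shControl replicate 1 or 3 (adjusted p up to 0.131).

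STAT3's own pathway gave a mixed count: of 16 tested genes 6 rose and 5 fell, with a median of -0.02, and with the correction 2 rose and 5 fell. Among its ligands, IL6 averaged 70.2 ± 2.84 FPKM in shSLC1A5 and 84.3 ± 1.17 FPKM in shControl, a log2 fold change of -0.28 (adjusted p 3.58e-05), and IL11 fell by 0.77. LIF, another ligand of the family, had a log2 fold change of -0.08 (adjusted p 0.157), which with the correction was -0.20 and called (adjusted p 0.00322). Among receptors and kinases, OSMR, the receptor of oncostatin M, rose by 0.24, to 47.3 ± 1.41 FPKM in shSLC1A5, against 39.8 ± 0.507 FPKM in shControl. JAK1, the kinase bound to these receptors, fell by 0.12, and TYK2, a related kinase, rose by 0.25, a call that the correction ended (0.02).

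Of 16 tested STAT3 target genes, a list that shares CEBPB and CEBPD with the regulators, 9 rose and 2 fell, with a median of 0.15; with the correction 6 rose and 2 fell, with a median of 0.04. BCL3, a nuclear cofactor of NF-kappa-B, rose by 0.59 (0.26 with the correction), and VEGFA, the vascular growth factor, rose by 0.44. SOCS3, the feedback inhibitor that STAT3 induces, averaged 21.1 ± 1.46 FPKM in shSLC1A5 and 18.3 ± 0.606 FPKM in shControl, a log2 fold change of 0.20 (adjusted p 0.0156). SOCS3 missed the threshold when shControl replicate 2 was left out (adjusted p 0.0573), and its value with the correction was 0.02.

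Around CD44, 2 of 15 tested genes of hyaluronan metabolism and CD44 binding rose and 6 fell, with a median of -0.04; with the correction 3 rose and 7 fell, with a median of -0.10. EZR (ezrin), which ties the tail of CD44 to actin, fell by 0.29, and HMMR, another hyaluronan receptor with a role at the spindle, fell by 0.18 (by 0.10 with the correction). HYAL2, a hyaluronidase of the cell surface, rose by 0.56 (0.30 with the correction), and CEMIP, which also takes part in breaking hyaluronan down, rose by 0.24. The hyaluronan synthase HAS2 averaged 0.226 ± 0.0529 FPKM in shSLC1A5 and 0.0976 ± 0.105 FPKM in shControl, with overlapping groups.

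Of the proteins related to CHI3L1, 3 were tested and LGALS3 (galectin 3) was called: it averaged 17.8 ± 0.666 FPKM in shSLC1A5 and 15.0 ± 0.854 FPKM in shControl, a log2 fold change of 0.24 (adjusted p 0.00377). CHI3L2, the nearest relative of CHI3L1, averaged 0.0738 ± 0.0295 FPKM in shSLC1A5 and 0.00426 ± 0.00738 FPKM in shControl, and the groups did not overlap (adjusted p 0.0876 in the fit with no filter). IL13RA2, a receptor of CHI3L1, averaged 0.116 ± 0.102 FPKM in shSLC1A5 and 0.0576 ± 0.0192 FPKM in shControl, with overlapping groups. CHID1, a chitinase-like lysosomal protein, had a log2 fold change of 0.07 (adjusted p 0.116), and of -0.14 with the correction, called lower (adjusted p 0.0148).

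Among intermediate filament proteins and the linkers that hold them, 5 of 10 tested genes rose and 3 fell, with a median of 0.08; with the correction 2 rose and 4 fell, with a median of -0.08. The keratin gene KRT80 had 10.8, 11.2 and 11.1 FPKM in shSLC1A5, against 16.8, 16.6 and 16.9 FPKM in shControl, and fell by 0.62, and DST (dystonin, a linker of filaments) fell by 0.29. The lamin gene LMNB2 rose by 0.33, and by 0.09 with the correction. SYNM (synemin), a partner of vimentin and nestin in filaments, had a log2 fold change of 0.09 (adjusted p 0.203), and of 0.04 with the correction.

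Of the S100 family and its annexin partners, 5 of 13 tested genes rose and 4 fell. Without shSLC1A5 replicate 1, 2 of 10 tested genes rose and 4 fell, because S100A8, S100A9 and S100A12, whose counts came mostly from that library, then fell under the filter. S100A8, a neutrophil protein, had 2301, 17 and 4 counts in shSLC1A5, against 0, 5 and 4 counts in shControl. S100A11 averaged 244 ± 8.20 FPKM in shSLC1A5 and 281 ± 10.2 FPKM in shControl, a log2 fold change of -0.22, opposite in sign to that of S100A6 before correction. S100A2 fell by 0.36, and ANXA2 (annexin A2) fell by 0.21. S100A10, which forms a complex with ANXA2, had a log2 fold change of -0.01 (adjusted p 0.903), and of -0.08 with the correction (adjusted p 0.0555). S100B, a glial marker, had 0 FPKM in every shSLC1A5 library and a mean of 0.00701 ± 0.0121 FPKM in shControl.

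The lists for other glioblastoma states and for neural stem cells were small once filtered, since 9 of 16 listed proneural genes, 10 of 17 listed neural stem cell genes and 9 of 14 listed astrocyte genes lay under 1 FPKM. Of 7 neural stem cell genes tested, 4 rose and 1 fell, with a median of 0.21 (0.00 with the correction). ID1, an inhibitor of basic helix-loop-helix factors that is kept high in stem cells, averaged 91.6 ± 0.768 FPKM in shSLC1A5 and 61.7 ± 3.31 FPKM in shControl, a log2 fold change of 0.56 ± 0.0389 (SE, adjusted p 1.76e-06). NOTCH1 rose by 0.45 (0.19 with the correction) and MSI2, an RNA-binding protein of stem cells, by 0.31, while ITGA6, an integrin used to sort glioma stem cells, fell by 0.21. PROM1 (CD133) averaged 0.00183 ± 0.00318 FPKM in shSLC1A5 and had 0 FPKM in every shControl library. MSI1 had 0 FPKM in every shSLC1A5 library and averaged 0.00507 ± 0.00878 FPKM in shControl.

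The family of basic helix-loop-helix factors and inhibitors around OLIG2 had 4 genes that rose among 8 tested. ID3 rose by 0.34 beside ID1, and TCF3, the partner that ID proteins bind, rose by 0.39 (0.17 with the correction). OLIG1, the neighbour of OLIG2, averaged 0.00728 ± 0.0126 FPKM in shSLC1A5 and had 0 FPKM in every shControl library. SOX10, another oligodendrocyte lineage factor, averaged 0.00432 ± 0.00748 FPKM in shSLC1A5 and 0.0149 ± 0.00523 FPKM in shControl. PDGFRA, the growth factor receptor of oligodendrocyte progenitors, averaged 0.761 ± 0.0622 FPKM in shSLC1A5 and 0.499 ± 0.0718 FPKM in shControl, and its groups did not overlap. It was called in the fit with no filter, with a log2 fold change of 0.58 (adjusted p 0.0348).

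Of 5 SOX genes tested beside SOX9, 2 rose. SOX12 rose by 0.37, to 11.7 ± 0.227 FPKM in shSLC1A5, against 8.98 ± 0.382 FPKM in shControl, and by 0.12 with the correction. SOX4 had a log2 fold change of 0.32 (adjusted p 0.0226), which missed the threshold when shSLC1A5 replicate 1, shControl replicate 1 or shControl replicate 2 was left out (adjusted p up to 0.0844). SOX11 had a log2 fold change of -0.03 (adjusted p 0.721). None of these 3 moved in the direction of SOX9 at the threshold.

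Of 7 proneural genes tested, 2 rose: DLL1, a ligand of NOTCH1, rose by 0.54, and SOX4 was the other. Of 6 classical genes, EGFR, the receptor often amplified in that state, fell by 0.16, to 37.2 ± 0.810 FPKM in shSLC1A5, against 41.2 ± 1.27 FPKM in shControl. SMO and AKT2 were higher by 0.35 and 0.20, and both calls ended with the correction. Of 5 astrocyte genes, GLUL, the glutamine synthetase of astrocytes, rose by 0.22 (adjusted p 0.00318) and averaged 6.34 ± 0.336 FPKM in shSLC1A5 and 5.39 ± 0.154 FPKM in shControl. GJA1 (connexin 43) had a log2 fold change of 0.11 (adjusted p 0.0288), and of 0.19 with the correction (adjusted p 0.00183). The uncorrected call was lost when any of 4 libraries was left out (shSLC1A5 replicates 1 and 2, shControl replicates 1 and 2; adjusted p up to 0.0873). Of 3 oligodendrocyte lineage genes, CNP had a log2 fold change of 0.12 (adjusted p 0.0206), which the correction ended (0.03), as did leaving out shSLC1A5 replicate 1 or 2 or shControl replicate 2 or 3 (adjusted p up to 0.0871). NKX2-2, another factor of that lineage, had a log2 fold change of 0.30 (adjusted p 0.367).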

How the data were processed

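Poly(A) RNA of 6 T98G samples was sequenced as pairs of 150 bases, per the labels' protocols. The submitters' processing notes name fastp, HISAT2 and StringTie; roles and versions, genome build, annotation and strand setting were not given in the sources used here. The authors deposited, per the file headers, read counts per gene for each library, taken as raw counts, and FPKM, normalized by the authors to gene length and library size. All 12 value columns were matched to samples by the title's group and number, and 0 were left unmapped. GENCODE 29 (GRCh38) holds 34674 of the table's gene IDs, 99.86% at an overlapping position, and the table's coordinates are printed as GRCh38 for that reason.

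Counts were normalized by TMM and tested with edgeR 4.0.16 in R 4.3.3 (quasi-likelihood, group alone, Benjamini-Hochberg adjustment, threshold 0.05). Standard errors are the log2 fold change divided by the square root of F, and intervals are 95%. Genes under a mean of 1 FPKM were fitted with no filter. The correction for GC content and length used loess (span 0.3) on each gene's longest GENCODE 29 transcript (99.7% of tested genes had one). DESeq2 1.42.0, limma 3.58.1 on log2(FPKM + 1) and log2(FPKM + 0.1), median-of-ratios and quantile normalization, other filters, leaving out each library and a replicate block were alternatives. The steps were tested on simulated data. Libraries of a group differed by 9.82 to 16.7 times counting noise (chi-square per gene), so no pair agreed within counting noise. Totals of 59327548 to 70802167 counts set the precision, and floors cover counting error only.

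The markers and lists were chosen with earlier results of these data known. Beside the markers, the text names genes by rule: up to 4 called genes per list with the largest changes and groups that do not overlap, the 2 most abundant where fewer than 2 qualify, direct partners of the markers, and the 3 genes most correlated with the tested marker of the largest change. Not every gene this rule gives is described, and 1 is not reported here. Other genes (S100A12, TYROBP, CDH5 and the overlapping genes) were named after their values were seen.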

Additional observations from a re-analysis of the deposited data

How the results depend on the processing

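In the reported fit 4 of the 5 markers tested were called, beside 39.2% of all genes tested, and the 5 markers under 1 FPKM did not enter it. VIM, CD44 and SOX9 kept their direction and call under every alternative run, and STAT3 was not called under any. Under the alternatives with the 1 FPKM filter, S100A6 was called except with the GC and length correction, where its log2 fold change was -0.04 (adjusted p 0.141); with the replicate block and that correction together it was -0.04 and called lower (adjusted p 0.0488). With no filter and 1 library left out, the adjusted p of S100A6 ran from 0.0139 to 0.174, and S100A6 was called only without shControl replicate 3. The number of genes called over the whole table was 4641, and 3018 with the replicate block and the GC and length correction together.

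For the 5 markers under 1 FPKM, the combinations of no filter with another choice were chosen after seeing the data. CHI3L1 ranged from 1.55 to 2.13 with 1 library left out, and lost its call without shSLC1A5 replicate 1 (1.64). NES was called with filterByExpr (0.91, adjusted p 0.0406) and with DESeq2 (0.92, adjusted p 0.0269). The adjusted p of SOX2 was 0.00753 with DESeq2 and ranged from 0.105 to 0.170 with 1 library left out. GFAP ranged from -0.44 to 0.40 and OLIG2 from -0.11 to 0.01 with 1 library left out, never called. The cause of these shifts was not tested. Depth limits NES, SOX2 and GFAP, with at most 92 counts in any library. Counts of called genes in single lists, those of other cell types included, were compared for each list, direction and setting. They moved by more than 1.5 times in 97 of these combinations, and by less or not at all in 583.

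Same-numbered libraries did not deviate together (correlations -0.15, 0.04 and -0.03), and 1 of 6 correlated best with its own number. The labels do not say whether the numbers pair the samples. With 3 libraries per group this check is too small to decide it. With the replicate block CHI3L1 was at 1.82 and not called (adjusted p 0.0748), and SOX2 had an adjusted p of 0.312.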
